A study of Mus musculus with 26 samples.

Results

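The transcripts of 10 amino acid transporter genes were followed across immortalized mouse embryonic fibroblasts carrying an empty retroviral vector, c-myc or v-src: Slc7a5, Slc3a2, Slc7a11, Slc7a1, Slc1a4, Slc1a5, Slc1a6, Slc38a1, Slc38a2 and Slc38a4. The genes were taken by symbol, with every probe set that the platform annotation assigns to 1 of them alone. This gave 20 probe sets of 45101 on the array and 10 genes of 18193 that have such a probe set. A probe set is a group of short oligonucleotides on the array that together report 1 transcript region, and its signal is the brightness after the MAS5 algorithm. With v-src, 9 of the 19 transporter probe sets tested, in 6 of the 10 genes, fell and 0 rose, where 6.47% of all probe sets tested fell and 6.16% rose. With c-myc, 5 probe sets of 3 genes fell and 2 of Slc38a1 rose, where 8.03% of all fell and 9.12% rose.

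Mammalian cells import amino acids through families of membrane carriers with overlapping substrates. Slc7a5 (LAT1) carries leucine and other large neutral amino acids into the cell in exchange for others, and works only when bound to the glycoprotein Slc3a2 (4F2hc). Slc3a2 is also the partner of Slc7a11 (xCT), which brings in cystine in exchange for glutamate and so feeds the synthesis of glutathione, the main thiol antioxidant. Slc7a1 (CAT1) takes up arginine and lysine. Slc1a4 (ASCT1) and Slc1a5 (ASCT2) exchange alanine, serine, cysteine and, for Slc1a5, glutamine, whereas Slc1a6 (EAAT4) belongs to the same family but is a glutamate transporter known from Purkinje neurons. Slc38a1, Slc38a2 and Slc38a4 (SNAT1, SNAT2 and SNAT4) take up small neutral amino acids together with sodium. Many of these genes are known targets of ATF4, the transcription factor induced when amino acids run short, and cystine import is also known to be controlled by NRF2, the factor of the oxidative stress response.

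The material was 26 arrays of total RNA from 3 parental lines, called WA, WB and WC. Each line had been infected with the pBabe-puro retroviral vector, empty or carrying human c-myc, a transcription factor, or v-src, an always active tyrosine kinase, labelled human in the sample records. This makes 9 groups, with 3 arrays in each of 8 and 2 arrays for WB with v-src, of which replicate 1 was not analysed here. The sources used here give no passage, vector dose or expression level of the inserted gene, and they do not say whether a line is 1 clone or whether replicates were separate cultures. The replicate of a vector effect was therefore the parental line (n = 3 lines), and a p-value within 1 line measures only how the arrays of that line vary, and this may be technical. The same limit holds for tests between lines with empty vector and for tests of whether an effect differs between lines. Each line and vector make 1 group, so in these tests a difference between lines cannot be told apart from one between infections.

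All arrays had been scaled to the same trimmed mean of 500, and their median signals ranged from 89.0 to 134.6. The mean correlation of an array with the others of its group was 0.959 to 0.979, the lowest being WC c-myc replicate 1 and, next to it, WC c-myc replicate 3 and WA empty vector replicate 3. The labelled cell type was checked by 8 fibroblast markers, and all 8 were bright enough to be tested, with a lowest signal on any array of 735 for Thy1 and 18636 for Vim. Of 6 macrophage and blood markers, 4 were bright enough to be tested, and of these Cd14 rose with v-src (log2 difference 1.69, SE 0.30, adjusted p = 0.0112) and the other 3 were not called. Ptprc, too dim to be tested, lay between 6.75 and 71.1. Summed over the 6 markers, the signal was 624 to 1460 with empty vector, 806 to 1833 with c-myc and 1159 to 3753 with v-src. Its part in the results on transporters was not tested. The mouse Myc signal was lower under c-myc (log2 difference -2.66, SE 0.42, adjusted p = 0.00695), and its probe set need not detect the inserted human gene. That of Src differed with v-src by 0.30 on its brightest probe set (SE 0.18, adjusted p = 0.314). Its means with empty vector and v-src were 1165 and 2065 in WA, 1665 and 1704 in WB, and 1335 and 1410 in WC. Of the 2 Src probe sets tested, 0 were called against empty vector, and 1 was called higher with v-src than with c-myc. Whether the probe sets of Myc or Src detect the inserted sequence was not tested.

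Differences are given on the scale log2(signal + 23), on which 1 unit is a 2-fold difference and changes of dim probe sets are understated. A probe set is called when its limma p-value, adjusted over 27022 probe sets by the Benjamini-Hochberg method, is under 0.05. Of the 20 transporter probe sets, 19 were bright enough to be tested, so each gene had at least 1. The exception, 1440379_at of Slc1a5, had group means of 33.2 to 107.7. Its c-myc arrays lay above those of empty vector in WA (means 107.7 against 49.6) and WC (101.0 against 33.2) and overlapped with them in WB. Its v-src arrays overlapped with those of empty vector in each line. At this level the signal was not told from background here.

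The RefSeq promoter table of mouse build GRCm38.p6 held 10 promoter windows of 7 of the genes, each from 250 bases before the start of transcription to 50 after it. Slc7a5, Slc38a1 and Slc1a5 have no entry there. Both strands were searched for 3 motifs. TGATGNAA is the composite site of C/EBP and ATF factors through which ATF4 acts, CACGTG is the E-box bound by Myc with its partner Max, and TGACNNNGC is the core of the antioxidant response element bound by NRF2. Slc7a11 (on 1420413_at alone), Slc1a4 and Slc1a6 were called lower with c-myc over the lines and hold 1 of the first 2 motifs. For this reason 150 bases of each of their windows are shown, with the motif in capitals. They end at the last base before the start of transcription or, for Slc1a4, at base 4 after it, where its match ends. Each sequence reads 5′ to 3′ on the strand of the gene.
Slc7a11 (chr3:50443614-50443763, minus strand): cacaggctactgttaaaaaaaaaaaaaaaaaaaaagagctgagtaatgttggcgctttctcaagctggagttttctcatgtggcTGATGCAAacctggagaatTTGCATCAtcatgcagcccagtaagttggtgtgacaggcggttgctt
Slc1a4 (chr11:20332710-20332859, minus strand): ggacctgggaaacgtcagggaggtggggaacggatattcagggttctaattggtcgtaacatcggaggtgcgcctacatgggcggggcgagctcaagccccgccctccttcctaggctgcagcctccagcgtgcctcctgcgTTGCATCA
Slc1a6 (chr10:78780346-78780495, plus strand): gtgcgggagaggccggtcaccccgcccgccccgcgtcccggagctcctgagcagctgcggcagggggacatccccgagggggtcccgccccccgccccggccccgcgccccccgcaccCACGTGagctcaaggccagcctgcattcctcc

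Slc7a11 had TGATGNAA at 2 places, once on each strand, at bases -66 to -59 and -47 to -40 from the start of transcription. Slc1a4 had it once, on the opposite strand, across the start itself. Of all 32851 promoter windows in the table, 3.97% held this motif. The window of Slc1a6 held CACGTG at bases -32 to -27, a motif present in 7.15% of all windows. TGACNNNGC, present in 12.4% of all windows, was found in Slc7a1 at -11 to -3 and in Slc38a2 at -27 to -19. No match of the 3 motifs was found in the windows of Slc3a2 and Slc38a4, and none overlapped another. A match describes the letters and does not show binding.

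Slc7a5 and its partner Slc3a2 fell in all 3 lines with v-src, and with c-myc they were lower in WA and WB but not in WC. The empty vector arrays of Slc7a5 (1418326_at) read 4977, 5899 and 7659 in WA, 7035, 6844 and 7050 in WB, and 4841, 4903 and 3914 in WC. With c-myc they read 4060, 4372 and 4187 in WA, 4334, 4834 and 3963 in WB, and 4962, 4797 and 4871 in WC. With v-src they read 2157, 1945 and 2828 in WA, 1791 and 2096 in WB, and 1739, 1630 and 2105 in WC. Every v-src array lay below every other array, and the c-myc arrays lay below those of empty vector in WA and WB and overlapped with them in WC. Over the lines the v-src difference of Slc7a5 was -1.52 (SE 0.15, 95% interval -1.86 to -1.17, adjusted p = 0.00164), a 2.86-fold decrease. The c-myc difference over the lines was -0.37 (95% interval -0.71 to -0.02, adjusted p = 0.132). Slc7a5 was also lower with v-src than with c-myc, by -1.15 (adjusted p = 0.00201).

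Slc3a2 (1425364_a_at) had a narrower range. Its empty vector arrays read 6793, 7035 and 8237 in WA, 7455, 7095 and 7921 in WB, and 7457, 6995 and 5799 in WC. Its c-myc arrays read 5387, 5393 and 5747 in WA, 5369, 5308 and 4958 in WB, and 6089, 7014 and 6362 in WC, and its v-src arrays 4527, 4730 and 4417 in WA, 4399 and 4364 in WB, and 3552, 3716 and 3642 in WC. As for Slc7a5, the v-src arrays were the lowest in each line, and the c-myc arrays of WC overlapped with those of empty vector. The v-src difference of Slc3a2 was -0.78 (SE 0.12, adjusted p = 0.00581) and the c-myc difference -0.33 (adjusted p = 0.0896). Slc3a2 was also lower with v-src than with c-myc (-0.45, adjusted p = 0.0258), a call lost without each line, at -0.54 without WA, -0.55 without WB and -0.26 without WC (adjusted p = 0.0687, 0.0545 and 0.143), and with no intensity trend in the variance (0.0682).

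The c-myc effect on this pair differed between the lines by an F test over the 26 arrays (adjusted p = 0.0148 for Slc7a5 and 0.0206 for Slc3a2, against 11.9% of all probe sets under 0.05). For Slc7a5 its values in WA, WB and WC were -0.53, -0.67 and 0.11 (SE 0.14). For Slc3a2 they were -0.41, -0.52 and -0.05 (SE 0.08). Scaling each array to the same median signal ended both calls (adjusted p = 0.0894 and 0.229). For Slc3a2 this test was also lost with no intensity trend (0.0537) and without WC empty vector replicate 3 (0.0629) or WC c-myc replicate 2 (0.0730). The same test for v-src was not passed by either gene (adjusted p = 0.186 and 0.535).

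**Figure D1:**
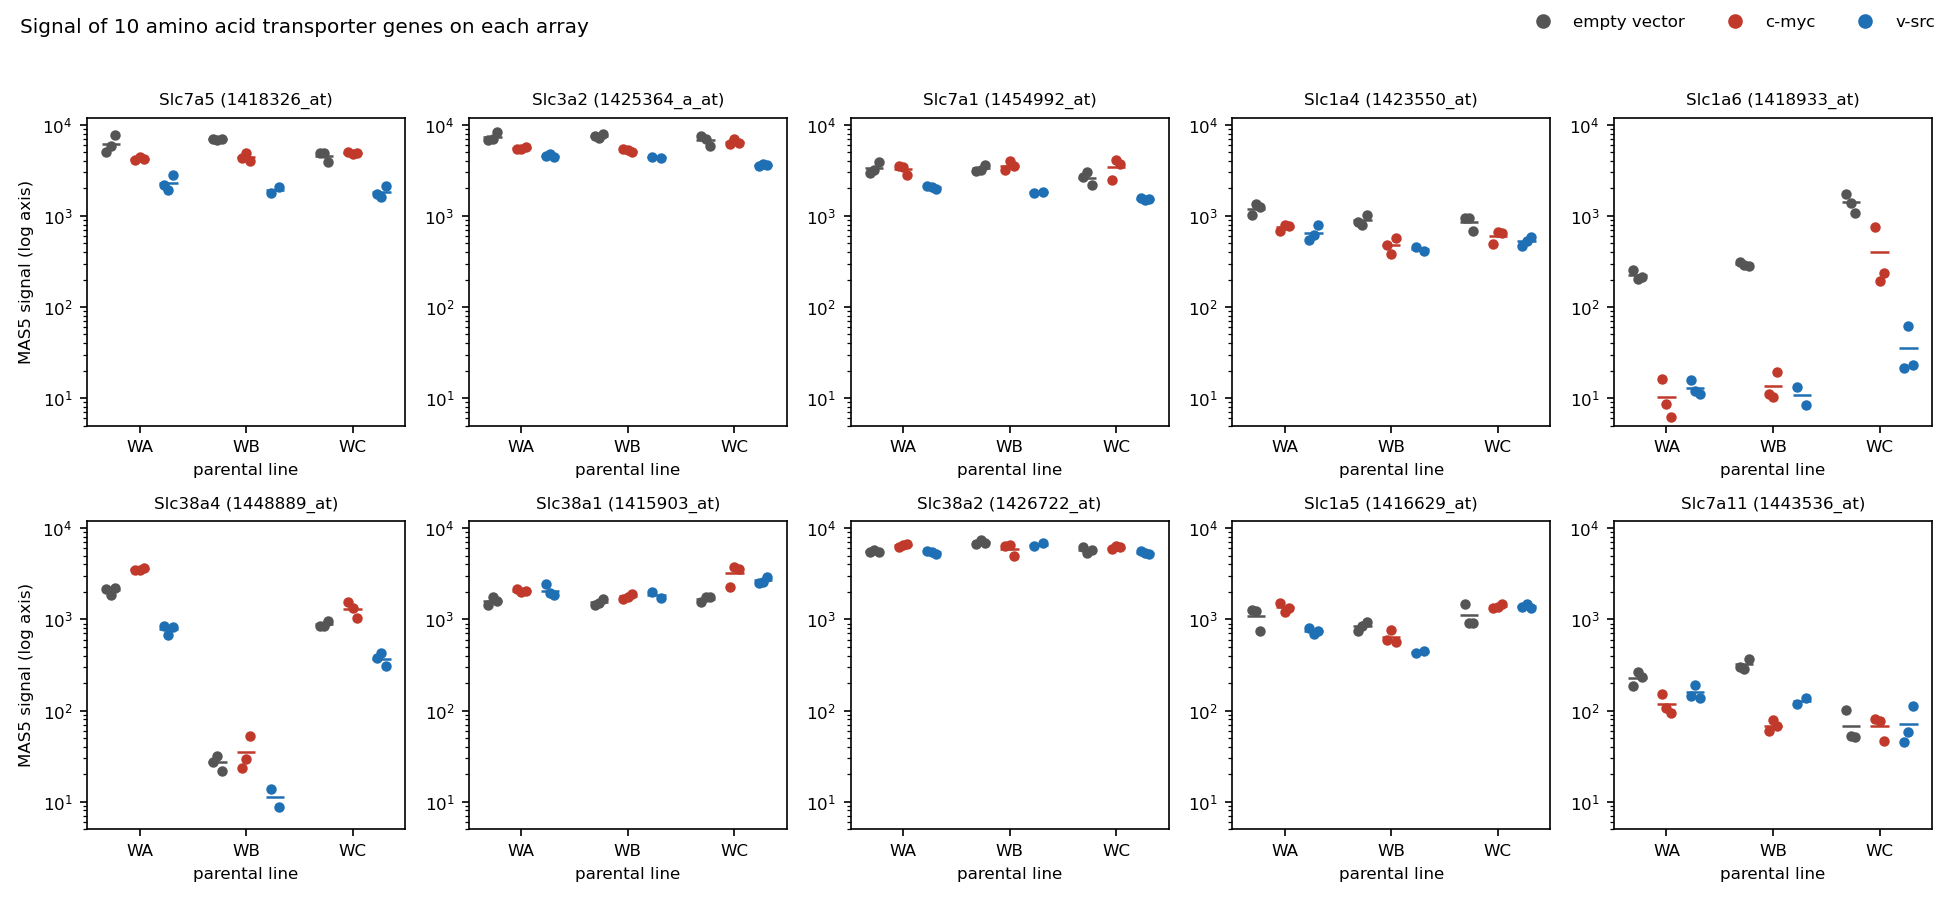
MAS5 signal of 1 probe set for each of the 10 genes on every array, on a log axis, by parental line and vector; points are arrays and short bars group means. The v-src arrays of Slc7a5, Slc3a2 and Slc7a1 lie below all other arrays of their line, Slc38a4 differs most between lines, and Slc1a6 is near the bottom of the scale in WA and WB with either oncogene.

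Slc7a11, the cystine importer that shares Slc3a2 as its partner, had low signals and was lower with c-myc in WA and WB. Of its 2 probe sets, 1420413_at read 150.3, 150.7 and 240.9 with empty vector in WA, 153.4, 116.5 and 150.6 in WB, and 77.9, 81.3 and 79.8 in WC. With c-myc it read 57.5, 60.7 and 21.5 in WA, 48.6, 12.6 and 11.0 in WB, and 82.9, 79.5 and 18.1 in WC. With v-src the arrays were at 84.4 to 155.1 in WA, 88.7 to 129.3 in WB and 41.0 to 96.5 in WC, and they overlapped with those of empty vector in every line. The c-myc arrays lay below those of empty vector in WA and WB, and in WC 1 of 3 did so by a wide margin.

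On this probe set the c-myc difference of Slc7a11 over the lines was -1.29 (SE 0.28, adjusted p = 0.0191), and the v-src difference -0.32 (adjusted p = 0.493). Without WC c-myc replicate 3 the c-myc value was -1.14 and no longer called (adjusted p = 0.0614), nor was it without WA (-1.15, adjusted p = 0.143) or WB (adjusted p = 0.110). With a pseudocount of 100 in place of 23 it was -0.70. The second probe set, 1443536_at, was not called over the lines with c-myc (-0.91, SE 0.31, adjusted p = 0.0807). It separated the lines: with empty vector it averaged 227 ± 40.4 (SD, n = 3 arrays) in WA, 320 ± 43.6 in WB and 67.8 ± 28.1 in WC. WA and WB exceeded WC by 1.49 and 1.95 (SE 0.26, adjusted p = 0.000125 and 3.72e-06). With a pseudocount of 100 the first of these differences was 0.97, still called. With c-myc its means were 117, 68.4 and 68.0, so that WB and WC had means within 1 unit of signal of each other. Its c-myc effects in the 3 lines were -0.85, -1.91 and 0.02 in the same order (SE 0.26), and they differed between lines (F test, adjusted p = 0.00337), under every alternative run. The WC arrays with empty vector lay at only 51.3 to 100.3 on this probe set. At that level a smaller effect in WC cannot be told apart from the limit that background sets.

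Slc7a11 was higher with v-src than with c-myc on 1420413_at by 0.97 (SE 0.28, adjusted p = 0.0398). This call was lost when any of 6 arrays was left out (WA c-myc 3, WC c-myc 3, WA v-src 1, WB v-src 2, WC v-src 2 or 3; adjusted p up to 0.133), without WA or WB, with no filter and at a pseudocount of 100, where it was 0.49. On 1443536_at the same difference was 0.38 (adjusted p = 0.440).

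Slc7a1, the arginine and lysine carrier, fell with v-src in all 3 lines. The brightest of its 3 probe sets, 1454992_at, read 2960, 3163 and 3852 with empty vector in WA, 3078, 3214 and 3658 in WB, and 2639, 2991 and 2179 in WC. With v-src it read 2105, 2088 and 1966 in WA, 1803 and 1849 in WB, and 1556, 1485 and 1529 in WC. The c-myc arrays, from 2491 in WC to 4092 in WC, overlapped with those of empty vector in each line. The v-src arrays lay below both other groups in all 3 lines.

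Over the lines the v-src difference of Slc7a1 was -0.76 on 1454992_at (SE 0.11, adjusted p = 0.0049) and -0.89 on 1454991_at (SE 0.14, adjusted p = 0.00675). Both calls were lost without WB (adjusted p = 0.0589 and 0.0680), with changes of -0.72 and -0.85. The dim probe set 1421533_at differed by -0.53 (adjusted p = 0.136). All 3 probe sets were lower with v-src than with c-myc, by -0.91, -0.81 and -0.79 (adjusted p = 0.00149, 0.00549 and 0.0285), the third of these lost without WA v-src replicate 3 (-0.72, adjusted p = 0.0605), without each line (-0.52 without WB) and with no filter. With c-myc the 3 differences from empty vector were 0.15, -0.08 and 0.26 (adjusted p = 0.374, 0.733 and 0.424). The c-myc effects on 1454991_at in WA, WB and WC were -0.33, -0.25 and 0.34 (SE 0.13), and these differed between lines (adjusted p = 0.0205). The test gave 0.0852 after median scaling, 0.0585 and 0.0508 without WC empty vector replicates 1 and 3, and 0.0748 without WC c-myc replicate 2. The WA value was -0.16 (adjusted p = 0.343) without WA empty vector replicate 3. The dim probe set 1421533_at went the other way in WA and WB. Its c-myc arrays there lay above those of empty vector (means 241 against 188 in WA and 291 against 175 in WB). In WC they overlapped (196 against 227).

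Slc1a4, the exchanger of alanine, serine and cysteine, fell with both oncogenes over the lines on all 3 probe sets. On 1423549_at the empty vector arrays read 1004, 1024 and 1504 in WA, 972, 770 and 1032 in WB, and 1055, 996 and 699.8 in WC. With c-myc they read 708, 617 and 642 in WA, 429.6, 477 and 495 in WB, and 533, 566 and 468 in WC. With v-src they read 436, 468 and 527 in WA, 399.3 and 326 in WB, and 478, 497 and 509 in WC. All c-myc and v-src arrays lay below all empty vector arrays of the same line, on each of the 3 probe sets.

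The c-myc differences over the lines were -0.84, -0.68 and -0.75 (SE 0.13, 0.12 and 0.14, adjusted p = 0.0061, 0.0096 and 0.0113). Those of v-src were -1.12, -0.85 and -1.06 (adjusted p = 0.00225, 0.00487 and 0.00374). The v-src calls were made under every alternative run, while the c-myc calls of all 3 probe sets were lost without WA (adjusted p = 0.0537 to 0.0822), where the differences were -0.86, -0.68 and -0.73. Those of 1423550_at and 1456003_a_at were also lost without WB (-0.57 and -0.66, adjusted p = 0.0638 and 0.0764), and that of 1423550_at without WC (-0.77, adjusted p = 0.0586). Slc1a4 with v-src was not called against c-myc on any probe set (-0.29, -0.17 and -0.31, adjusted p = 0.149, 0.347 and 0.157), with 95% intervals that reach from -0.63 to 0.10. The effects on Slc1a4 were not called different between lines by the F test (adjusted p from 0.326 to 0.846 over both oncogenes and 3 probe sets).

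Slc1a5, which also carries glutamine, was not called with either oncogene over the lines on the only probe set of it that was tested. Its empty vector arrays on 1416629_at read 1256, 1238 and 737 in WA, 747, 852 and 941 in WB, and 1482, 907 and 924 in WC. The c-myc arrays read 1506, 1216 and 1327 in WA, 587, 768 and 559.8 in WB, and 1347, 1363 and 1468 in WC, and the v-src arrays 807, 683 and 751 in WA, 426 and 445 in WB, and 1360, 1485 and 1328 in WC. The v-src arrays were lower than empty vector in WB and overlapped with it in WA and WC. The differences over the lines were 0.11 for c-myc (95% interval -0.42 to 0.63, adjusted p = 0.784) and -0.34 for v-src (95% interval -0.87 to 0.18, adjusted p = 0.356).

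The v-src effect on Slc1a5 differed between lines (F test, adjusted p = 0.00497, against 10.3% of all probe sets under 0.05). In WB it was -0.92 (SE 0.20, adjusted p = 0.00116), in WA -0.48 (adjusted p = 0.0508) and in WC 0.36 (adjusted p = 0.147). This test was passed under every alternative run.

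Slc1a6, the glutamate transporter, had the largest differences from empty vector over the lines among the 19 probe sets tested, on its single probe set 1418933_at. With empty vector it read 254, 203 and 212 in WA, 313, 287 and 279 in WB, and 1743, 1396 and 1087 in WC. With c-myc it read 16.1, 8.64 and 6.28 in WA, 11.0, 10.2 and 19.4 in WB, and 757, 195 and 238 in WC. With v-src it read 15.9, 12.04 and 11.0 in WA, 13.3 and 8.48 in WB, and 21.4, 61.9 and 23.0 in WC. In WA and WB the signal with either oncogene was at most 19.4, below the pseudocount, and no detection calls were used here to tell such a level from background. In WC the c-myc arrays stayed at 195 or more, with replicate 1 above the other two.

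Over the lines the difference of Slc1a6 was -2.67 with c-myc (SE 0.47, adjusted p = 0.00934) and -3.55 with v-src (adjusted p = 0.00377). Because of the low signals these sizes depend on the pseudocount, and with 100 in place of 23 they were -1.70 and -2.27, both still called. Without WA or WB the c-myc difference was -2.55 or -2.44 and no longer called (adjusted p = 0.0586 and 0.0618). With empty vector WA and WB differed from WC by -2.52 and -2.15 (SE 0.34, adjusted p = 3.99e-06 and 2.84e-05). Within the lines the v-src differences were -2.77 in WA, -3.22 in WB and -4.66 in WC (F test between lines, adjusted p = 0.0245). Since the v-src signals of WA and WB lay below the pseudocount, an unequal effect cannot be told apart here from the higher empty vector level of WC. That test gave 0.0589 after median scaling and 0.214 with a pseudocount of 5. It was also lost without WC empty vector replicate 1 (0.0740) or 2 (0.0530) and without WC v-src replicate 1 (0.0752) or 3 (0.0718).

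Slc38a4, a carrier of small neutral amino acids, differed most by parental line. On 1448889_at the empty vector arrays read 2172, 1828 and 2233 in WA, 27.0, 31.9 and 22.0 in WB, and 851, 847 and 953 in WC. With c-myc it read 3480, 3495 and 3685 in WA, 23.3, 29.7 and 52.3 in WB, and 1562, 1330 and 1027 in WC. With v-src it read 836, 666 and 834 in WA, 13.6 and 8.83 in WB, and 377, 422 and 310 in WC. In WA and WC the c-myc arrays lay above and the v-src arrays below those of empty vector, and in WB no array exceeded 52.3. The v-src difference within WB was -0.54 (adjusted p = 0.0386), lost without either WB v-src array, without WB empty vector replicate 1 or 2, with no filter and at a pseudocount of 100 (-0.19), while at a pseudocount of 5 it was -0.98 (adjusted p = 0.00281).

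With empty vector WA exceeded WB by 5.39 and WC by 1.21 (SE 0.17, adjusted p = 5.67e-17 and 6.21e-06) on this probe set. On the other probe set, 1428111_at, these differences were 4.04 and 1.70 (SE 0.16). The WB arrays, near the pseudocount on 1448889_at and at 35.5 to 74.8 on 1428111_at, were not told from background here, so the size of a difference that involves WB depends on the pseudocount. Over the lines the v-src difference on 1448889_at was -1.05 (SE 0.24, adjusted p = 0.0257), a call lost without WA (adjusted p = 0.125), without WC (adjusted p = 0.154) and with a pseudocount of 100 (-0.86, adjusted p = 0.0852). On 1428111_at the v-src difference of -0.91 was not called (SE 0.33, adjusted p = 0.110). Nor were the c-myc differences of 0.50 and 0.63 (adjusted p = 0.186 and 0.229). Between v-src and c-myc, the difference of Slc38a4 was -1.55 on both probe sets (adjusted p = 0.00357 and 0.0128). On 1428111_at it was lost without WA (-1.01, adjusted p = 0.0752) and without WC (adjusted p = 0.0906).

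Within WA the differences on 1428111_at were 1.01 with c-myc and -1.60 with v-src (SE 0.16, adjusted p = 3.03e-05 and 7.85e-08). In WC the values were 0.73 and -0.86 (adjusted p = 0.00112 and 0.000272), and in WB 0.15 and -0.28 (adjusted p = 0.572 and 0.316). The effects on 1428111_at differed between lines for v-src (F test, adjusted p = 0.00222) under every alternative run. For c-myc the F test gave 0.0345 and was lost under 12 alternatives, among them 8 that leave out 1 array, with adjusted p up to 0.106. At the low level of WB on this probe set a smaller effect there cannot be told apart from the limit that background sets.

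The genes of Slc38a1, Slc38a2 and Slc38a4 lie close together on chromosome 15 in the RefSeq gene table, with 2 other genes between the first pair and 4 between the second, 0 of them protein-coding. Slc38a1 rose with c-myc, and its arrays were similar between lines with empty vector. On 1415903_at it read 1443, 1773 and 1601 with empty vector in WA, 1421, 1506 and 1679 in WB, and 1543, 1778 and 1743 in WC. The c-myc arrays read 2165, 1993 and 2056 in WA, 1693, 1754 and 1916 in WB, and 2247, 3777 and 3549 in WC. The v-src arrays were at 1831 to 2463 in WA, 1720 to 1991 in WB and 2516 to 2921 in WC. Both oncogene groups lay above empty vector in every line, in WB by a narrow margin.

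Over the lines Slc38a1 rose with c-myc by 0.49 on 1415903_at (SE 0.13, adjusted p = 0.0368) and by 0.44 on 1454764_s_at (SE 0.13, adjusted p = 0.04997). The first call was lost after median scaling (0.43, adjusted p = 0.0845), with no filter (0.0504), with no intensity trend (0.0664) and without each line, and without WC the value was 0.29 (adjusted p = 0.246). The second lay at the threshold and was lost in 18 of the 26 fits that leave out 1 array, with adjusted p up to 0.0612. It was also lost after median scaling (0.38, adjusted p = 0.100), with quantile normalization, no filter, either other pseudocount or no intensity trend (adjusted p = 0.0502 to 0.0796), without both WA empty vector replicate 3 and WC c-myc replicate 1 (0.0672) and without each line (adjusted p = 0.179, 0.0544 and 0.305). With v-src the differences were 0.43 (adjusted p = 0.0666) and 0.09 (adjusted p = 0.703), neither of them called.

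Slc38a2 was not called with either oncogene over the lines. On 1426722_at, its brightest probe set, all 26 arrays lay between 4973 and 7494, and the differences over the lines were 0.02 with c-myc and -0.08 with v-src (SE 0.10, 95% intervals -0.20 to 0.24 and -0.30 to 0.14). Its other 2 probe sets differed by 0.35 and 0.64 with c-myc (adjusted p = 0.110 and 0.106) and by 0.21 and 0.32 with v-src (adjusted p = 0.335 and 0.421). Within WA, 1429593_at rose with c-myc by 0.58 (SE 0.16, adjusted p = 0.0059) and with v-src by 0.46 (adjusted p = 0.0354). On 1426722_at the c-myc effects in WA, WB and WC were 0.22, -0.24 and 0.07 (SE 0.08), which differed between lines (adjusted p = 0.0277) but not after median scaling (0.364) or with no intensity trend (0.0676), nor without WB empty vector replicate 2 (0.0893), WA c-myc replicate 2 (0.0535) or 3 (0.0578), or WB c-myc replicate 3 (0.0820). Without the last of these the WB value was -0.11 (adjusted p = 0.345), and after median scaling the WA value was 0.12 (adjusted p = 0.602).

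**Figure D2:**
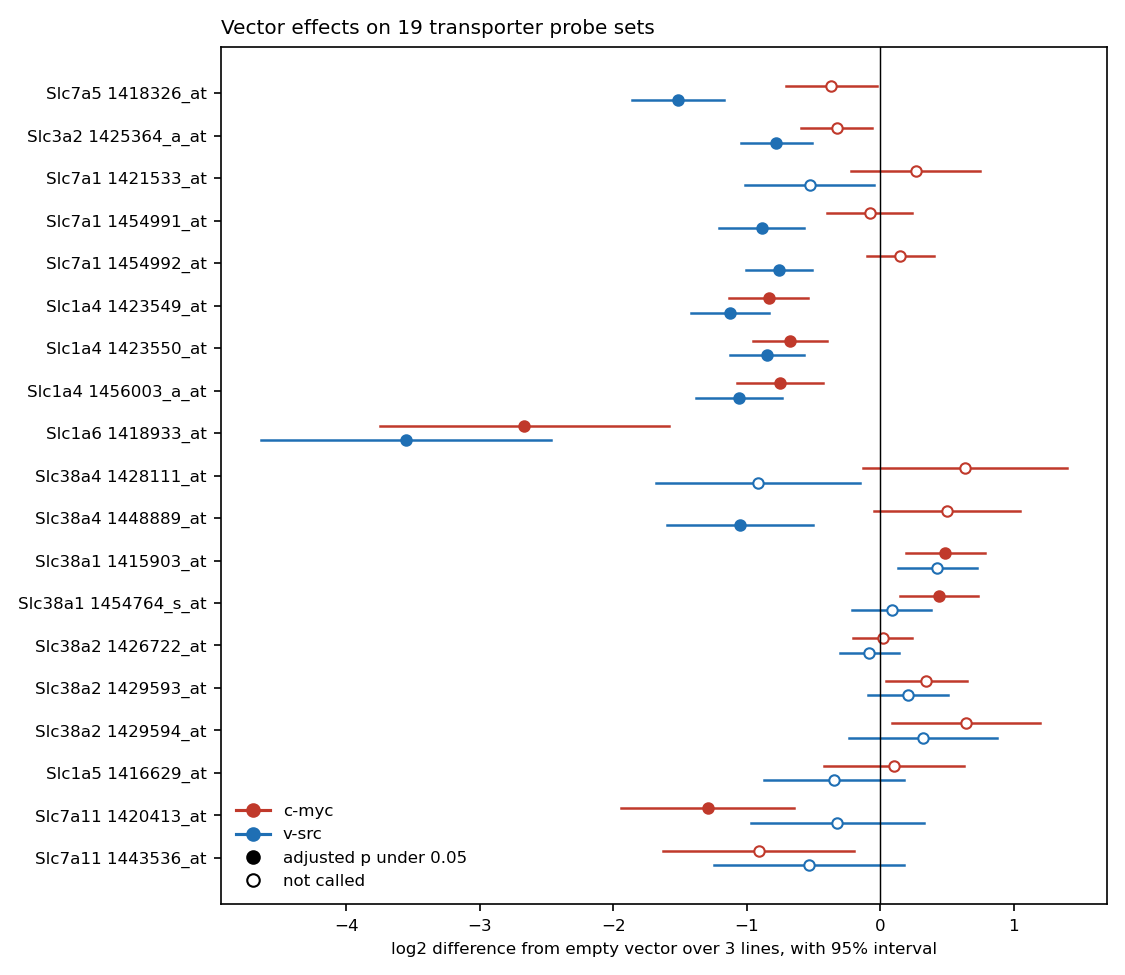
Log2 difference from empty vector over 3 lines for the 19 transporter probe sets tested, with 95% intervals; red is c-myc, blue is v-src, and filled points are called at an adjusted p under 0.05. Slc1a4 and Slc1a6 are called lower with both oncogenes, Slc7a5, Slc3a2, Slc7a1 and 1 probe set of Slc38a4 with v-src, 1 probe set of Slc7a11 with c-myc, and Slc38a1 is higher with c-myc.

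Counted over the set, v-src lowered 9 of the 19 probe sets, in 6 genes, and raised 0. Of all 27022 probe sets 12.6% were called with v-src, 6.47% lower and 6.16% higher. The median v-src difference of the 19 was -0.76, and that of all probe sets 0.02. With c-myc 5 probe sets of 3 genes were lower and 2 of 1 gene higher, where 8.03% and 9.12% of all probe sets were called in those directions and 17.1% in either. The median c-myc difference was 0.02 for the 19 and 0.07 for all. Against c-myc, v-src arrays were lower on 7 probe sets of 4 genes and higher on 1, where 12.9% and 10.2% of all were called and 23.1% in either direction. The comparisons share groups of samples, so they are not independent of each other, and the SE of a probe set is the same in all 3.

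By arrays alone, 9 of the 20 transporter probe sets had v-src arrays below all empty vector arrays in each of the 3 lines, and 1 of Slc38a1 had them above. This holds for 7.79% and 6.76% of all probe sets tested. For c-myc the numbers were 4 below (Slc1a4 and Slc1a6) and 2 above (Slc38a1), where 7.46% and 8.08% of all did so. Between v-src and c-myc 7 were below in every line and 0 above, against 11.8% and 8.64%.

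By limma the count of genes called with c-myc over the lines was 0 without WA and 1 without WB, in place of 4. Without WA 5 genes had an unadjusted p under 0.05. A fit on fewer lines has fewer residual degrees of freedom, and without WA the c-myc differences of Slc1a4 and Slc1a6 were -0.86, -0.68, -0.73 and -2.55, beside -0.84, -0.68, -0.75 and -2.67 over all lines. The v-src count of 6 was within 1.5 times of itself under every alternative run. The v-src calls of Slc7a5, Slc3a2, Slc1a6 and the 3 probe sets of Slc1a4 were made under each of them.

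Within single lines the arrays are the replicates. The c-myc fits called 9 genes in WA, 7 in WB, 5 in WC. For v-src the counts were 7, 8 and 7. A gene counts here when at least 1 of its probe sets is called. Of the 19 probe sets, c-myc called 6 higher and 9 lower in WA, 1 and 9 in WB, and 6 and 3 in WC. With v-src the numbers were 1 and 10, 0 and 11, and 1 and 11. Of all probe sets 32.3%, 22.5% and 31.1% were called with c-myc in the 3 lines, and 23.8%, 21.9% and 24.6% with v-src. Slc1a4 and Slc1a6 were called lower with both oncogenes in each line, and Slc7a5, Slc3a2, Slc7a1 and Slc38a4 lower with v-src in each line on at least 1 probe set. For Slc38a4 in WB this was 1448889_at alone, at 22.0 to 31.9 with empty vector and 8.83 and 13.6 with v-src. These signals were not told from background here, and the call was lost at a pseudocount of 100. Of the 68 probe set calls within lines, 51 were kept whichever array was left out.

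**Figure D3:**
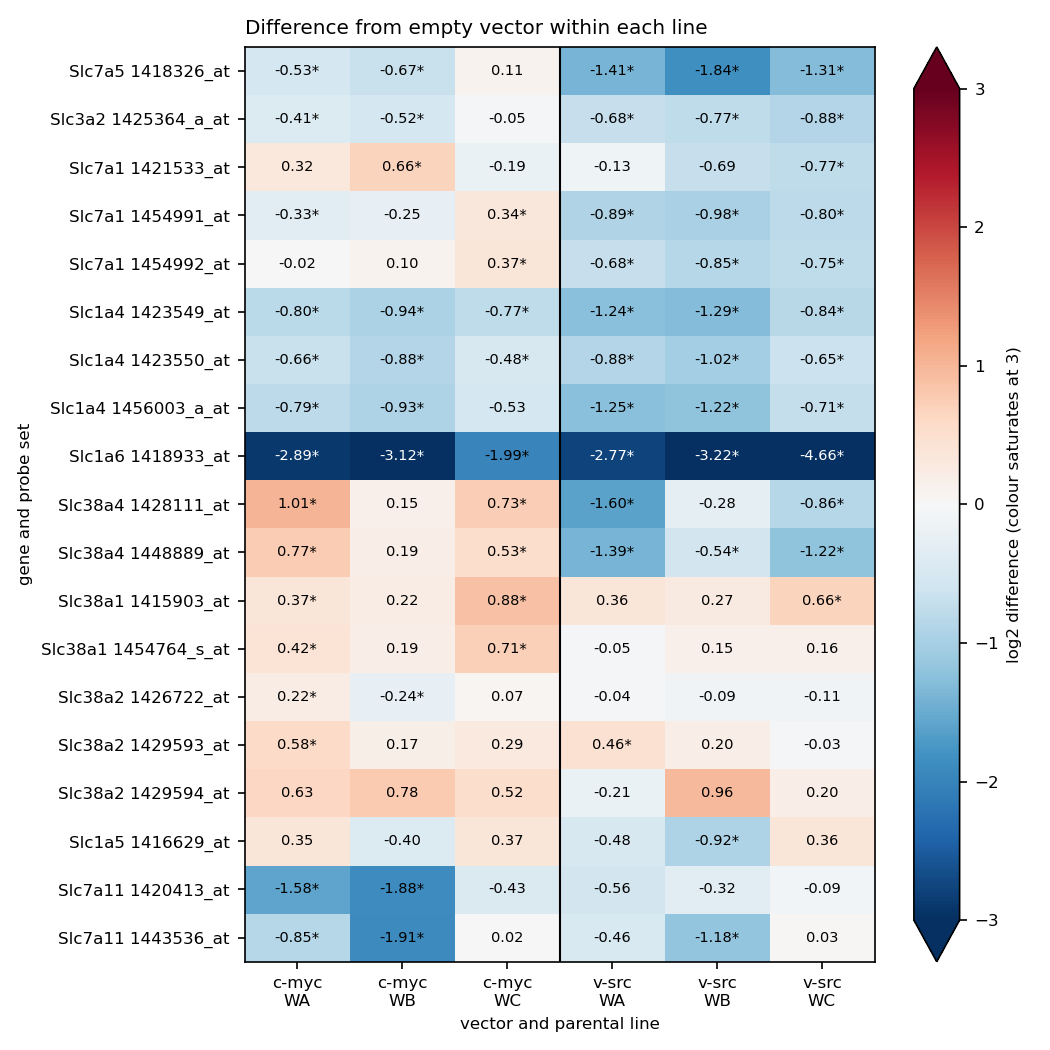
Log2 difference from empty vector within each parental line for the 19 probe sets tested, c-myc on the left and v-src on the right; colour and number give the difference, and an asterisk marks an adjusted p under 0.05 over the 26 arrays. With c-myc, Slc7a5, Slc3a2 and 1443536_at of Slc7a11 are at 0.11, -0.05 and 0.02 in WC and below these in WA and WB, and with v-src Slc38a4 is lowest in WA and Slc1a6 in WC.

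With empty vector alone, 2 genes differed between WA and WB (Slc38a4 and Slc38a2), 5 between WA and WC (Slc7a5, Slc7a11, Slc38a4, Slc1a4 and Slc1a6) and 5 between WB and WC (Slc7a5, Slc7a11, Slc38a2, Slc38a4 and Slc1a6). Counted as probe sets, of 19, 2 were higher and 1 lower in WA than in WB. The numbers were 5 and 1 for WA against WC, and 3 and 3 for WB against WC. Of all probe sets 21.8%, 25.3% and 27.6% were called in either direction in these comparisons. The call of Slc7a5 between WA and WC (0.42, adjusted p = 0.0229) was lost without WA empty vector replicate 3 (0.26, adjusted p = 0.185) or WC empty vector replicate 3 (0.32, adjusted p = 0.128). That of Slc1a4 on 1423550_at (0.49, adjusted p = 0.0316) was lost without either of these or WA empty vector replicate 2. That of Slc38a2 between WB and WC (0.26, adjusted p = 0.0194) was lost without replicate 2 of either line and after median scaling, which also ended its call between WA and WB (-0.32, adjusted p = 0.00639). Between WB and WC Slc7a5 differed by 0.62 (SE 0.14, adjusted p = 0.00109).

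The variance among the 9 group means was divided into a line share, a vector share and a share of the combination of both. The last is what remains, so it also holds the variation between arrays. The vector share was 93.0% for Slc7a5 and 87.8% for Slc3a2. For Slc7a1 it was 88.7% on 1454992_at, 89.6% on 1454991_at and 70.6% on 1421533_at. For Slc1a4 it was 87.2% on 1423549_at, 87.8% on 1456003_a_at and 71.3% on 1423550_at, where the line took 25.7%. The line share was 91.5% and 82.6% for the 2 probe sets of Slc38a4 and 65.8% for Slc1a5. For Slc7a11 on 1443536_at the line took 46.3%, the vector 30.5% and the combination 23.2%. For Slc38a2 on 1426722_at the line took 37.7% and the vector 12.3%, and the rest lay in the combination.

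Ordered by group mean, Slc7a5 was highest in WB and WA with empty vector, which overlapped, then in the 4 groups of WC c-myc, WC empty vector, WB c-myc and WA c-myc, each overlapping with the next, and lowest in the 3 v-src groups, which overlapped. For Slc38a4 on 1448889_at the order was WA c-myc, WA empty vector, WC c-myc, WC empty vector, WA v-src, WC v-src and then WB, and only WB c-myc and WB empty vector overlapped. For Slc1a6 it was WC empty vector, WC c-myc, WB empty vector, WA empty vector and WC v-src, followed by 4 groups of WA and WB with an oncogene. WC c-myc overlapped with WB empty vector.

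Over the 9 group means, Slc7a5 correlated with Slc3a2 at r = 0.950. With Slc7a1 it correlated at 0.955 on 1454991_at, 0.916 on 1454992_at and 0.655 on 1421533_at. Slc3a2 and its other partner Slc7a11 correlated at 0.26 on 1420413_at and 0.41 on 1443536_at. Probe sets of 1 gene correlated at 0.957 to 0.989 for Slc1a4 and 0.974 for Slc38a4, at 0.750 for Slc7a11 and 0.753 for Slc38a1, at 0.648 to 0.902 for Slc7a1 and at 0.169 to 0.542 for Slc38a2. The points share lines, vectors and scaling, and no test was made. Among all other genes the nearest to Slc7a5 were Zfx (r = 0.977), Fkbp11 (0.964) and Gars (0.960), which codes for glycyl-tRNA synthetase. Those nearest to Slc3a2 were Yars, the tyrosyl-tRNA synthetase (0.959), Slc7a5 itself (0.950) and Snx7 (0.9495), and those nearest to Slc7a11 on 1443536_at were Ubr2 (0.969), Sars, the seryl-tRNA synthetase (0.942), and Tmtc2 (0.929). Slc1a6 was nearest to Ctnnd2 (0.985), Col2a1 (0.971) and Stx17 (0.963), and Slc38a4 on 1448889_at to Pir (0.973), Lsm12 (0.971) and Ddx6 (0.969).

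The same was done for the other 5 genes. Slc7a1 on 1454992_at was nearest to Fmnl1 (0.983), Nucks1 (0.972) and Pom121 (0.965), and Slc1a4 on 1423550_at to Atxn1 (0.983), Lrrc17 (0.953) and Stt3b (0.949). Slc38a1 on 1415903_at was nearest to Eya3 (0.976), 2310022A10Rik (0.942) and Togaram1 (0.909), and Slc1a5 to Uqcc3 (0.936), Ndufb6 (0.934) and Lin37 (0.931). For Slc38a2 on 1426722_at the nearest were Il6ra (0.903), Neil3 (0.903) and Cep295 (0.887), the lowest values of the 10.

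Of 29 other amino acid transporter genes, 22 were tested and 7 were too dim, each by its brightest probe set. With c-myc 1 rose and 3 fell, and with v-src 1 rose and 3 fell, where 17.1% and 12.6% of all probe sets were called in either direction. With c-myc the differences were -1.41 for Slc7a3, another carrier of arginine and lysine (SE 0.33, adjusted p = 0.0234), -0.60 for Slc36a4 and -0.54 for Slc36a1 (adjusted p = 0.0183 and 0.0244), and 0.64 for Slc38a3, a glutamine transporter (adjusted p = 0.0427). With v-src they were -1.53 for the glutamate transporter Slc1a3 (SE 0.22, adjusted p = 0.00493), -0.86 for the taurine transporter Slc6a6 (adjusted p = 0.030) and -0.78 for the glycine transporter Slc6a9 (adjusted p = 0.0258). Slc16a10, which carries aromatic amino acids, rose by 0.69 (adjusted p = 0.0404). The v-src calls were made on 3 of 5 tested probe sets of Slc1a3, 1 of 4 of Slc6a6, 2 of 2 of Slc6a9 and 1 of 2 of Slc16a10. The c-myc call of Slc38a3 was made on 1 of 2. Against c-myc, v-src arrays were lower for 3 of the 22, Slc1a3 (-1.69), Slc6a6 (-1.01) and Slc7a6 (-0.69), and higher for 0, where 12.9% and 10.2% of all were called. The median differences of the 22 were 0.06 with c-myc, -0.15 with v-src and -0.12 between them, where those of all probe sets were 0.07, 0.02 and -0.04.

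Of 23 genes of the amino acid response, 22 were tested. With c-myc 7 fell and 0 rose, where 8.03% of all probe sets fell and 9.12% rose, and the median was -0.36 against 0.07 for all. Trib3, an inhibitor of ATF4 signalling that ATF4 itself induces, had a difference of -2.14 (SE 0.20, adjusted p = 0.0022), from group means of 558 to 1767 with empty vector to 173 to 304 with c-myc. The glutathione-degrading enzyme Chac1 had -1.72, Nupr1 -1.71 and the transcription factor Atf5 -1.64 (adjusted p = 0.00359, 0.00469 and 0.00359). Atf4 itself, named because the list is built around it, differed by -0.06 with c-myc (adjusted p = 0.612). Its v-src difference was -0.40 (SE 0.07, adjusted p = 0.00987), with 1 of its 2 tested probe sets called.

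With v-src 5 genes of this list fell and 1 rose, where 6.47% and 6.16% of all probe sets did so, and the median was -0.30 against 0.02. The differences were -1.14 for Atf5, -1.05 for the serine synthesis enzyme Psph and -0.64 for asparagine synthetase, Asns (adjusted p = 0.00952, 0.0324 and 0.0248), and the transcription factor Cebpb rose by 0.96 (SE 0.18, adjusted p = 0.0138). For Asns 1 of 2 tested probe sets was called. Between v-src and c-myc 6 genes were higher with v-src and 3 lower, beside 10.2% and 12.9% of all probe sets. The 4 largest of these were Ddit3 (1.65), Nupr1 (1.58), Trib3 (1.47) and Cebpb (1.47), all higher with v-src (adjusted p = 0.00171 to 0.00336).

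Of 20 genes of glutathione and glutamine use, 19 were tested, and 5 rose and 0 fell with c-myc, beside 9.12% and 8.03% of all probe sets. They were led by Cad and Ppat, which use glutamine to make pyrimidines and purines (0.95 and 0.90, SE 0.12, adjusted p = 0.00422 and 0.00439), by Gclm, a subunit of the enzyme that starts glutathione synthesis (0.66, adjusted p = 0.0153), and by glutamine synthetase, Glul (0.63, adjusted p = 0.0247). With v-src 4 rose and 1 fell, beside 6.16% and 6.47% of all. Heme oxygenase, Hmox1, rose by 1.82 (SE 0.15, adjusted p = 0.000958), from means of 570 to 1368 with empty vector to 1957 to 6378. Glul rose by 1.25, Nfe2l2, which codes for NRF2, by 0.58 (adjusted p = 0.0311), and Nqo1, another NRF2 target, had -0.58 (adjusted p = 0.025). Between v-src and c-myc 4 were higher and 4 lower, beside 10.2% and 12.9% of all, with Hmox1 at 1.90, Srxn1 at 1.32, Cad at -1.17 and Nfe2l2 at 0.88. The medians of the 19 were -0.06 with c-myc, 0.01 with v-src and -0.13 between them. These 3 lists were drawn up with results of these data known, and their counts give no independent evidence of a direction.

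**Figure D4:**
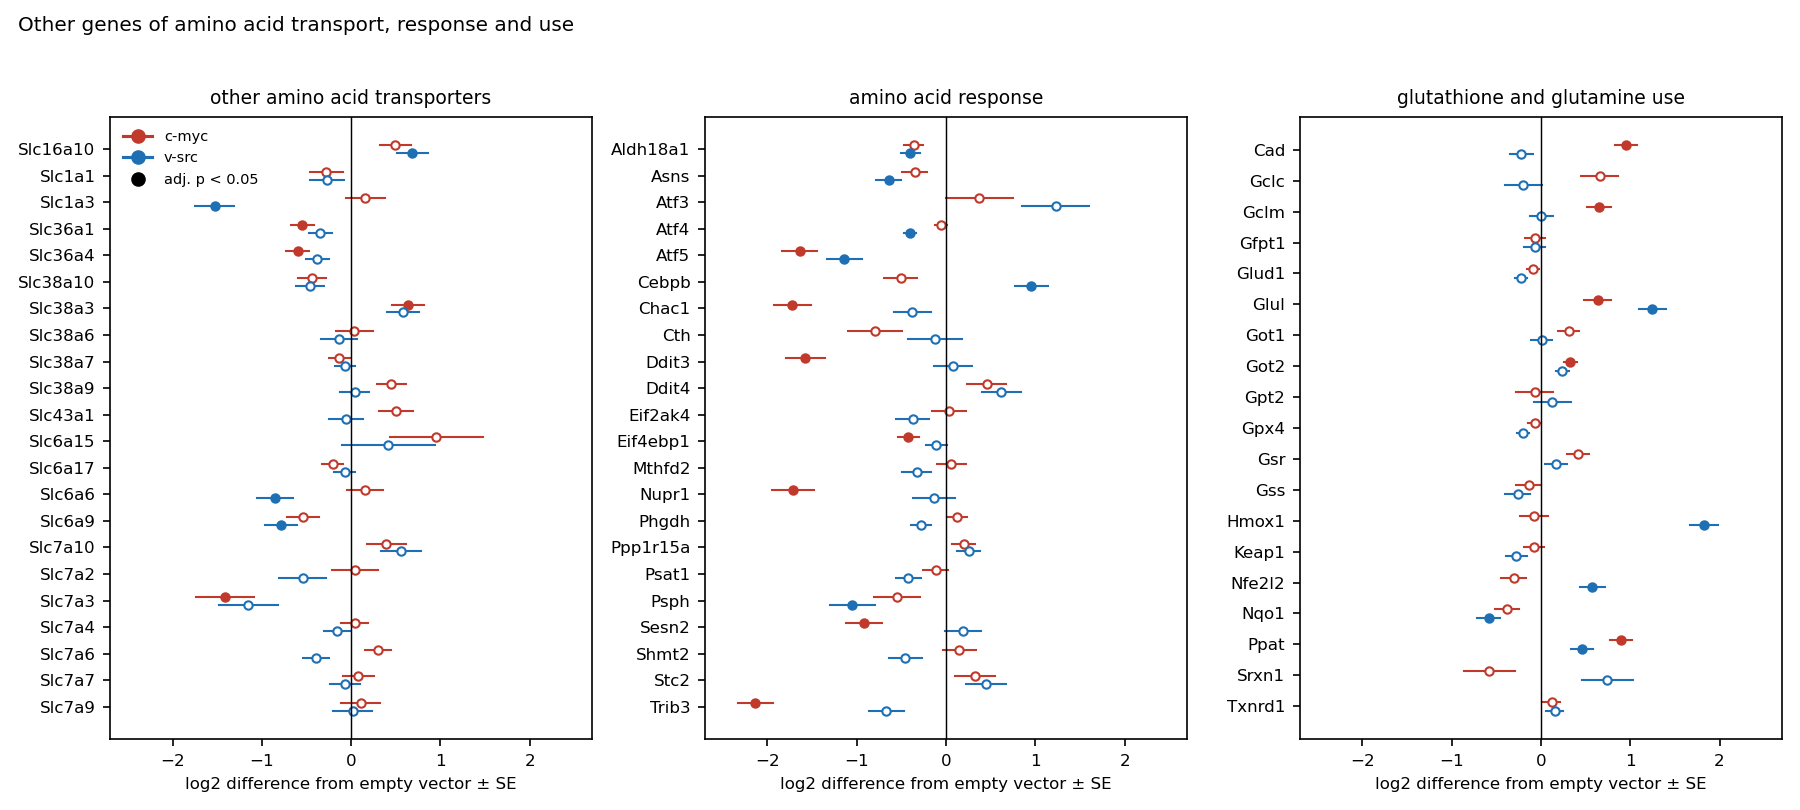
Log2 difference from empty vector over 3 lines, with SE, for the brightest tested probe set of each gene in the lists of other amino acid transporters, amino acid response genes and genes of glutathione and glutamine use; red is c-myc, blue is v-src, and filled points are called. With c-myc Trib3, at -2.14, is the lowest of the amino acid response list, and with v-src Hmox1, at 1.82, is the highest of the glutathione and glutamine list.

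Among the fibroblast markers 3 of 8 were lower with c-myc and 5 of 8 with v-src, where 8.03% and 6.47% of all probe sets were lower, and 0 of the 8 were higher. Pdgfrb, a growth factor receptor of fibroblasts, differed by -1.15 with c-myc and -1.87 with v-src (SE 0.21, adjusted p = 0.0103 and 0.00214). Thy1 differed by -1.74 with c-myc (adjusted p = 0.0137) and -0.03 with v-src, and Col1a1 by -1.15 with v-src (adjusted p = 0.0100). Summed over the 8 markers, the signal was 109697 to 170515 with empty vector, 95633 to 113897 with c-myc and 84633 to 104176 with v-src. Of the markers of endothelium, epithelium, nerve and skeletal muscle that were bright enough to be tested, none was called against empty vector with either oncogene. The epithelial sum was 838 to 2910 with empty vector, 448 to 3821 with c-myc and 1233 to 6080 with v-src. Whether these markers take part in the transporter differences was not tested.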

How the data were processed

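Total RNA of 26 samples was hybridised to Affymetrix mouse 430 2.0 arrays, 1 array a sample. The deposited values are linear intensity signals made with MAS5, per the submitters' processing notes, whose version is not given in the sources used here. Their trimmed mean, leaving out 2% at each end, was 500 on every array. Of 45101 probe sets, 34958 had 1 gene symbol in the platform annotation, 932 several and 9211 none listed. Groups come from the sample labels, and no replicate was identical to another.

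Signals were put on the scale log2(signal + 23), where 23 is the 20th percentile of all values. Control probe sets (64) and those with a mean at or below the 40th percentile, a signal of about 68.9, were left out, and 27022 were tested with limma 3.58.1 in R 4.3.3 (moderated variance with an intensity trend). Vector effects over the lines used the 9 group averages with line and vector as terms. Effects within a line, differences between lines with empty vector and F tests of the differences between effects used all 26 arrays. The p-values were adjusted by the Benjamini-Hochberg method, threshold 0.05, and the steps were tested on simulated data. The precision is limited by the number of arrays and lines.

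The genes, the lists and the tests were chosen with earlier results of these data known. All probe sets of the 10 genes are reported. From each other list at most the 4 called genes with the largest change in each comparison over the lines are named, together with Myc and Src as the targeted genes and, for each transporter, the 3 genes most like it by Pearson r over the 9 group means. Atf4 and some of the cell type markers were named beside this rule. Alternatives were the scaling, filter, pseudocount, choice of probe sets, variance model, unit of replication, and leaving out each line or array.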

Additional observations from a re-analysis of the deposited data

Results flagged for a closer look

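For 9 probe sets the effect of an oncogene differed between the parental lines by limma's F test over the 26 arrays. With c-myc these were Slc7a5 (adjusted p = 0.0148), Slc3a2 (0.0206), Slc7a11 on 1443536_at (0.00337), Slc7a1 on 1454991_at (0.0205), Slc38a2 on 1426722_at (0.0277) and Slc38a4 on 1428111_at (0.0345). With v-src they were Slc38a4 on 1428111_at (0.00222), Slc1a5 on 1416629_at (0.00497) and Slc1a6 (0.0245). Of all probe sets 11.9% differed between lines with c-myc and 10.3% with v-src. Of the 9 calls, 3 were kept under every alternative run and 4 whichever array was left out. In Slc7a5, Slc3a2 and Slc7a11 the line whose c-myc effect was nearest 0 was WC, and WC with empty vector had lower signals of Slc7a5 and Slc7a11 than WA and WB. In Slc1a5 the v-src effect had opposite signs in WB (-0.92) and WC (0.36). The WC value was not called, and its v-src arrays overlapped with those of empty vector. In Slc38a4 the WB arrays lay at 35.5 to 74.8 on 1428111_at, and in Slc7a11 the WC empty vector arrays at 51.3 to 100.3 on 1443536_at. In Slc1a6 the v-src arrays of WA and WB lay below the pseudocount. In these lines of Slc38a4, Slc7a11 and Slc1a6 a smaller effect cannot be told apart from the limit that background sets. The remaining lines, WA and WC for Slc38a4 and WA and WB for Slc7a11, were not compared apart from them. The F tests measured differences between lines against the spread of arrays within a group, which may be technical. What sets the lines apart was not tested.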

How the results depend on the processing

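Results are counted as genes with a called probe set. Over the lines, c-myc called 4 genes, and 8 with the arrays as separate values or with each group as a random block, 0 without line WA and 1 without line WB. Between v-src and c-myc 5 genes were called, 9 with the arrays as separate values, 3 without line WA and 3 without line WB. With the arrays as separate values the replicates of a group are counted as independent. After median scaling 1 gene in place of 2 differed between WA and WB, as with the mean of the probe sets of a gene, and 1 in place of 6 had a c-myc effect that differed between lines. Between WA and WC 3 genes in place of 5 were called without WA empty vector replicate 3, without WC empty vector replicate 3, and without both WA empty vector replicate 3 and WC c-myc replicate 1 (each the least correlated array of its group), the last an alternative chosen after seeing the data. Without a line the fit has fewer residual degrees of freedom. No direction reversed, and the other causes were not tested.

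When each array was left out in turn, the counts over the lines were 3 to 4 for c-myc, 6 to 7 for v-src and 4 to 5 between them. Within WA, WB and WC they were 8 to 9, 5 to 8 and 4 to 5 for c-myc, and 6 to 8, 6 to 8 and 7 to 8 for v-src. Between lines they were 2 to 3, 3 to 6 and 4 to 6 for WA with WB, WA with WC and WB with WC, and for the F tests 4 to 8 and 2 to 3. Of 24 probe set calls over the lines 10 were kept under every alternative and 20 without each array, of 68 within lines 50 and 51. Of 15 calls between lines with empty vector 11 and 12 were kept in this way, and of 9 by the F tests 3 and 4. Median scaling moved the median of all probe sets by over 0.1 in 5 comparisons, most between WA and WC (0.19).

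The replicate numbers did not pair the arrays: those with the same number in a line deviated together with a mean r of 0.01 over 25 pairs (-0.14 to 0.20), and 8 of 26 arrays correlated best with their own number. With the replicate number as a block and arrays as separate values, 8 genes were called with c-myc and 9 between v-src and c-myc, as without the block.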
